A study of Mus musculus with 8 samples.

Results

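Granulo_2 is one of 2 granulocyte clusters among 21 leukocyte clusters that the study's authors named by hand in a single-cell RNA-seq experiment on mouse brain, pia and dura after experimental stroke. Its members are the cell barcodes that the authors' annotation assigned to Granulo_2, each joined to the library named beside it. They are 1270 of 32457 annotated cells, and the neighbouring cluster Granulo_1 holds 2127. All libraries were made from adult male C57BL/6 mice, and stroke was induced by transient occlusion of the middle cerebral artery (MCAO), in which the blood flow is restored after the occlusion. Before the tissues were taken, a fluorescent antibody to the leukocyte antigen CD45 was injected into a vein, so that cells still in the blood were stained, and the cells sorted for sequencing were CD45+ but negative for the injected antibody (CD45iv-CD45+).

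There are 8 libraries, namely control brain, control pia and control dura without stroke, 2 replicates of brain, 1 of pia and 1 of dura taken 24 h after MCAO, and 1 of brain taken 72 h after MCAO. The methods of the study give naive mice as the controls for sequencing, while its figure captions call these controls sham. The study states that experiments were pooled after a replication and gives a total n for each compartment. The number of mice behind a single library was not found. Each library therefore counts as 1 sample, and the spread between libraries may be technical. The title of the control pia library says brain, while its other labels say pia, and it is taken as pia. Total unique molecular identifiers (UMIs, which count captured RNA molecules) ranged from 6591898 in control pia to 20754181 in brain 72 h.

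Granulo_2 cells numbered 4 in control brain, 47 in brain 24 h replicate 1, 202 in brain 24 h replicate 2, 373 in brain 72 h, 10 in control pia, 129 in pia 24 h, 146 in control dura and 359 in dura 24 h. Both granulocyte clusters had at least 30 cells in 6 libraries, and values by library are given for these 6 (all but control brain and control pia). Among the 1270 Granulo_2 cells, only 2 barcode sequences occurred in Granulo_2 of more than 1 library.

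A pair of libraries stood apart from the rest. Brain 24 h replicate 2 and brain 72 h were counted against a gene list of 31053 genes and the other 6 libraries against one of 32285, with 30406 genes in both. These 2 libraries had 13 cell barcodes in common with each other, and any pair of the other 6 had 12 to 43, whereas a library of one set never had more than 2 in common with a library of the other. The study lists kit version 3 for brain 72 h and dura 24 h and version 2 for the others, which is another split than the one the barcodes and gene lists give. The 3 brain libraries after MCAO are thus divided over both sets, pia and dura are in the longer-list set only, and the only 72 h library is in the shorter-list set. The compartment comparison is given below also with the gene list as a term in the model and over the longer-list libraries, and the change with time in brain also for the shorter-list pair, without a test.

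Neutrophils are short-lived phagocytes that are made in the bone marrow and are among the first leukocytes to enter ischemic tissue. Their granules are filled in a fixed order during maturation: primary (azurophil) granules with myeloperoxidase and serine proteases in promyelocytes, then secondary (specific) granules with lactoferrin, cathelicidin and Ngp in myelocytes, then tertiary granules with gelatinase. Transcripts for granule proteins fall as the cells mature, while those of receptors and cytokines such as Cxcr2, Csf3r, Il1b and Cxcl2 are typical of mature and activated neutrophils.

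Among the secondary granule genes, Ngp (neutrophilic granule protein), Ltf (lactoferrin) and Camp (cathelicidin) divided the Granulo_2 cells of the libraries, and all 3 lie on chromosome 9. Their promoters are shown because the granule genes are known targets of the transcription factor C/EBP epsilon, encoded by Cebpe. Each sequence is 300 bases from RefSeq on build GRCm38.p6, from 250 bases before the start of the gene to 50 bases from it, and is written 5′ to 3′ on the gene's own strand. Ngp is at chr9:110419558-110419857 on the plus strand, Ltf at chr9:111019042-111019341 on the plus strand and Camp at chr9:109849407-109849706 on the minus strand. Capitals mark the C/EBP core TTGCNNAA, searched on both strands.
Ngp: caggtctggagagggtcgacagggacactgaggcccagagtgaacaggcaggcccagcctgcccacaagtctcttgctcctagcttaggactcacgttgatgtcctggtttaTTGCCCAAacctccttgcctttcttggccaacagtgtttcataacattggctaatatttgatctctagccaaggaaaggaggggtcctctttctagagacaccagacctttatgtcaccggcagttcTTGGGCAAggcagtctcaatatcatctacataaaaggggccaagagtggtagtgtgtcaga
Ltf: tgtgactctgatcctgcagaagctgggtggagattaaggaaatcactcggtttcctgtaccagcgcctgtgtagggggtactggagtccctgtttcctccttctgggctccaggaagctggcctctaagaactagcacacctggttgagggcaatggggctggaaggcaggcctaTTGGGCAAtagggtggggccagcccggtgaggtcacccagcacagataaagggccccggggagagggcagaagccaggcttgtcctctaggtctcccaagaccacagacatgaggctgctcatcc
Camp: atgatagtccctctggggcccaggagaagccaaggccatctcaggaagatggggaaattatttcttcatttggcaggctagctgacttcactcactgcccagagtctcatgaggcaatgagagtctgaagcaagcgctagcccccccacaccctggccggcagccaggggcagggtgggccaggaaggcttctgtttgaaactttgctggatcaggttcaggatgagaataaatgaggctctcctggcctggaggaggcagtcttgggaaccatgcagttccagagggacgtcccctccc
The core begins at positions -138 and -11 from the start of Ngp and at -75 from that of Ltf, and these letters do not occur in the Camp window. Of 32851 mouse promoters of this length, 10.8% hold the motif. The PU.1 core GAGGAAGT, held by 3.20% of the promoters, is in none of the 3. Of the 8 secondary granule genes that matched a promoter, Lcn2, Ngp and Ltf hold the C/EBP core, and Camp, Chil3, Pglyrp1, Cd177 and Lyz2 do not. A match is a description of the letters and not evidence of binding.

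The first question was how frequent Granulo_2 cells were in each tissue. They made up 0.0931% of annotated cells in control brain (95% exact binomial interval 0.0254 to 0.238), 1.03% in brain 24 h replicate 1 (0.755 to 1.36), 5.82% in replicate 2 (5.07 to 6.66) and 6.17% in brain 72 h (5.57 to 6.80). The share was 0.356% in control pia (0.171 to 0.653) and 3.29% in pia 24 h (2.75 to 3.90). In the dura it was 5.19% in the control (4.40 to 6.08) and 7.95% at 24 h (7.17 to 8.77). All 4 brain and pia libraries after MCAO lay above their controls, and so did dura 24 h, although control dura already held a share near that of brain 24 h replicate 2. These intervals cover counting error only, and the 2 brain replicates at 24 h, which are also in different sets of libraries, were further apart than their intervals.

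**Figure D1:**
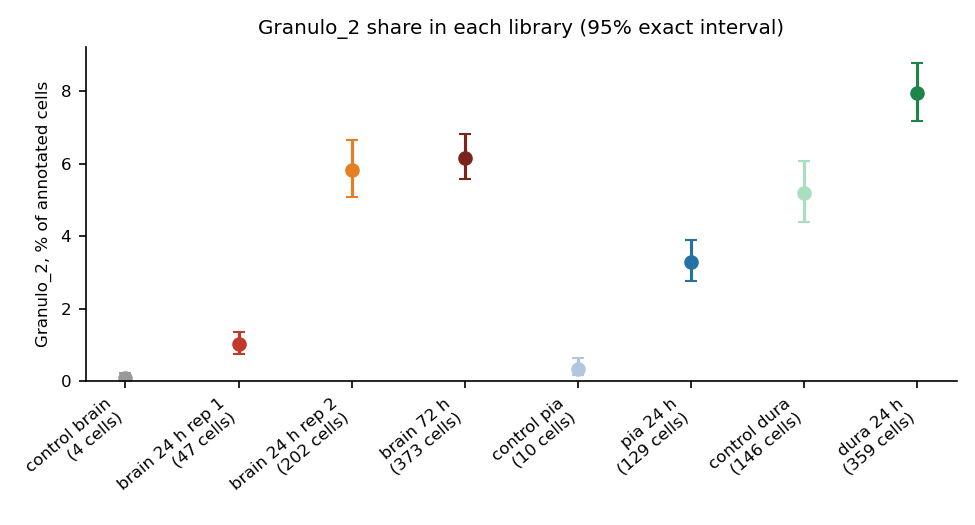
Share of Granulo_2 among annotated cells in each of the 8 libraries, as a percentage, with exact 95% binomial intervals. Control brain and control pia lie at 0.0931% and 0.356%, control dura at 5.19%, and the 2 brain replicates at 24 h at 1.03% and 5.82%.

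Relative to the other granulocyte cluster the order differed. There were 0.547 Granulo_2 cells per Granulo_1 cell in brain 24 h replicate 1, 1.07 in replicate 2, 0.284 in brain 72 h and 0.426 in pia 24 h, but 2.21 in control dura and 3.29 in dura 24 h. In the dura Granulo_2 was thus the larger of the 2 clusters, and in brain 24 h replicate 1, brain 72 h and pia 24 h the smaller. In brain 24 h replicate 2 it was slightly the larger, so the 2 brain replicates at 24 h differed in this order. With 1 library for most groups these ratios have no replicate test.

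The label was set beside its markers S100a8, a subunit of calprotectin, and Hp, haptoglobin. The authors named the granulocyte clusters from these same cells, with both genes among the markers. The shares therefore describe the cluster and do not test its name. For shares of cells with a gene, every cell was thinned at random to 500 UMIs and cells below that depth were left out (1 each in brain 72 h and dura 24 h). At this depth S100a8 was found in 97.9% and 99.5% of Granulo_2 cells of the brain 24 h replicates, 91.1% in brain 72 h, 100% in pia 24 h, 100% in control dura and 99.7% in dura 24 h. In lymphoid cells of the 8 libraries, which should lack it, the share was 0 to 7.84%. Hp was found in 55.3%, 47.0%, 26.1%, 79.1%, 65.1% and 76.8% of Granulo_2 cells in the same order and in at most 1.32% of lymphoid cells. Ly6g, the antigen that defines mouse neutrophils, was found in 0 of 47 cells in brain 24 h replicate 1 and in up to 23.8% elsewhere (brain 24 h replicate 2), and in no Granulo_1 cell at this depth.

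Summed over the cells of a library, S100a8 had the highest mean level, at 113480 ± 28334 CPM (SD, n = 6 libraries; CPM, the UMIs of a gene scaled to a total of 1000000). S100a9, the other calprotectin subunit, followed at 71778 ± 49798 CPM, and was above S100a8 in brain 24 h replicate 2 (155923 against 131926 CPM) and brain 72 h (109311 against 91906 CPM). Ngp was at 60409 ± 40830 CPM. Camp, Retnlg (resistin-like gamma, a marker of mouse neutrophils), Lyz2 (lysozyme), Ltf and Lcn2 (lipocalin 2, which binds bacterial siderophores) were also among the 15 most abundant. Cells were small in UMIs: the median was 772 and 1980.5 in the brain 24 h replicates, 831 in brain 72 h, 703 in pia 24 h, 1615 in control dura and 1562 in dura 24 h. Granulo_1 cells of the same libraries had medians of 3458.5, 5682.5, 2705, 2441, 2305 and 2346. The mitochondrial share of Granulo_2 UMIs was 0.527 to 0.837%.

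Markers of other cells were present at low levels. The 12 monocyte markers summed to 633 to 1302 CPM in Granulo_2 and the 10 macrophage markers to 469 to 3159 CPM, led by Apoe in 4 of the 6 libraries. In lymphoid cells of the same libraries the macrophage markers summed to 872 to 2452 CPM. The 7 erythrocyte and platelet markers summed to 369 and 2005 CPM in the shorter-list libraries (brain 24 h replicate 2 and brain 72 h), most of it Hbb-bs (beta globin), and to at most 49.4 CPM in the other 4. The part of RNA from other cells in these values was not tested.

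Granulo_2 was next compared with Granulo_1 of the same library. The clusters were drawn from these same cells, so the ratios describe them and no test applies. Of 3182 genes with at least 10 UMIs over both clusters together in each of the 6 libraries, 86 (2.7%) were at least 2-fold higher in Granulo_2 in 6 of 6 libraries and 364 (11.4%) at least 2-fold lower. A gene could pass through the cluster where it was high alone. Of the 3182 genes, 535 had 0 UMIs in a cluster of at least 1 library, among them 20 of the 86 and 120 of the 364. The ratio there depends on the 0.5 counts added, and with 3 UMIs in place of each 0, the most that a count of 0 allows, the numbers were 86 and 289. The median log2 ratio over all 3182 genes was -0.74. Without brain 24 h replicate 1, which had the fewest cells, the genes higher in every library numbered 148.

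The 10 genes furthest above Granulo_1 included the secondary granule genes Camp, Ngp and Ltf and the calprotectin gene S100a9, beside Retnlg, Mrgpra2b, Chil1, Cstdc4, Stfa2l1 and Olfm4. The median log2 ratio was 12.05 for Camp (9.05 to 13.12 over the libraries), 11.77 for Ngp, 11.44 for Retnlg, 11.32 for Ltf and 9.85 for S100a9. Ngp, Retnlg and S100a9 had UMIs in both clusters of every library, whereas Camp and Ltf had none in Granulo_1 of 1 library each, and their medians were 11.29 and 10.27 with 3 UMIs there. Chil1, Mrgpra2b and Stfa2l1 were at 0 UMIs in Granulo_1 of 5 libraries, Cstdc4 of 4 and Olfm4 of 6. For Ngp the Granulo_2 sums were 44358, 26240, 18619, 52465, 103128 and 117645 CPM (brain 24 h replicates 1 and 2, brain 72 h, pia 24 h, control dura, dura 24 h), against 6.37, 2.86, 3.34, 22.4, 105 and 229 CPM in Granulo_1. In each library the Granulo_2 sum was above that of Granulo_1, although most Granulo_2 cells of brain 24 h replicate 1, brain 72 h and pia 24 h carried none (Ngp in 5 of 47, 112 of 373 and 31 of 129 cells). In the thinned dura libraries, Ngp was found in 6.06% and 13.8% of Granulo_1 cells and in 9.46% and 16.8% of lymphoid cells, so the Granulo_1 shares there are at background. Cebpe had a median ratio of 5.98 and Mmp9 (gelatinase B, of tertiary granules) one of 7.23, or 5.30 and 5.98 with 3 UMIs in place of 0. Hp, a marker of the label, differed less, with a median of 1.29 (1.17 to 2.91).

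By list, 14 of 19 measured neutrophil identity genes and 7 of 9 secondary granule genes were higher in 6 of 6 libraries, with list medians of 5.53 and 5.62. Lyz2, which monocytes express as well, was the secondary granule gene that was lower, at -1.24. Of the 8 tertiary granule genes measured 3 were higher, and of the 6 NADPH oxidase subunits none passed in either direction. Csf3r, the receptor for G-CSF, was higher in all 6 libraries but less than 2-fold in the 2 dura libraries (0.40 and 0.96 on the log2 scale, against 2.99 to 3.55 in the other 4).

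Of the 10 genes furthest below Granulo_1, Ccr2, Ms4a4c, Fn1, Ms4a6c and F13a1 are in the list of monocyte markers, and S100a4, Ms4a8a, Crip1, S100a10 and Mcub are not. Ccr2, the chemokine receptor with which monocytes leave the bone marrow, had a median log2 ratio of -7.49 (-9.97 to -3.92), Ms4a4c -6.14, S100a4 -5.97 and Fn1 (fibronectin) -5.86. With 3 UMIs in place of 0 in Granulo_2 the median was -7.02 for Ccr2, -5.75 for Ms4a4c, -5.91 for S100a4 and -3.49 for Ms4a8a, which was at 0 in 4 libraries. Ccr2 was listed with 1, 0, 1, 0, 3 and 1 UMIs in Granulo_2, and at 421 to 1021 CPM in Granulo_1 of the same libraries. Of the 12 monocyte markers 10 were lower, with a median of -4.32 (-3.87 with 3 UMIs in place of 0), as were 4 of the 7 macrophage markers measured. Klf4, a transcription factor of monocytes, was lower at -4.67 (-3.62 with 3 UMIs in place of 0), and so were Ccl9 (-5.22) and Ccl2 (-2.97), ligands of monocyte receptors. Granulo_1, although named a granulocyte cluster, thus carried the higher levels of these 10 monocyte markers in every library compared.

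**Figure D2:**
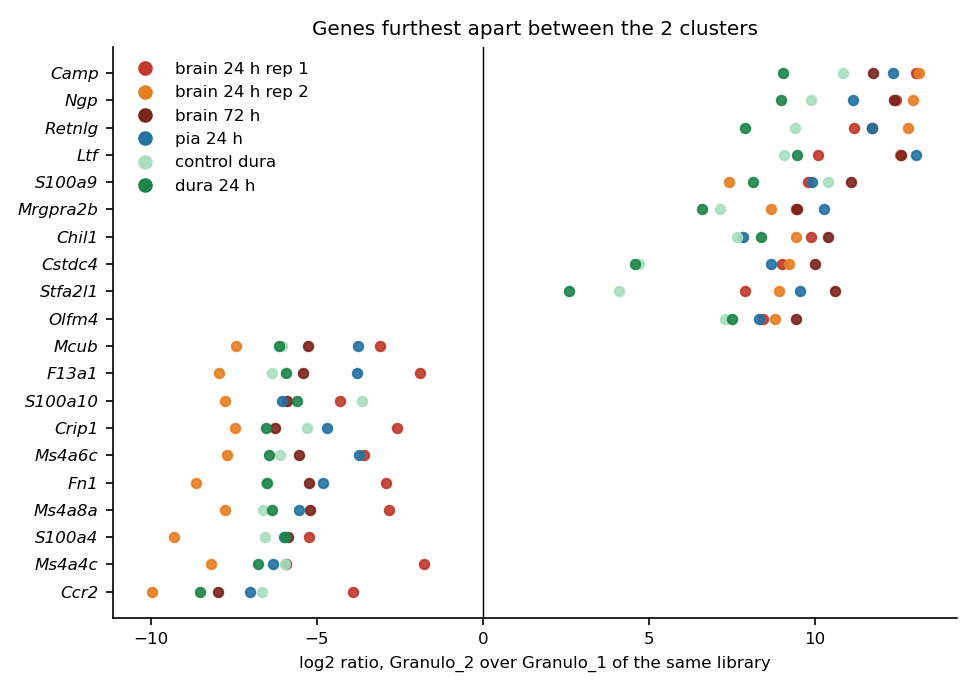
Log2 ratio of the Granulo_2 to the Granulo_1 sum in 6 libraries (coloured points) for the 10 genes furthest above and the 10 furthest below 0. Camp ranges from 9.05 to 13.12 and Ccr2 from -9.97 to -3.92.

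Within Granulo_2, cells in which Ngp, Camp or Ltf was found were most of the cluster in the dura. They were fewer than those without in brain 24 h replicate 1, brain 72 h and pia 24 h. In brain 24 h replicate 2 cells with and without were near in number, and before thinning Ngp alone was found in 102 of 202 cells. At 500 UMIs a cell, at least 1 UMI of Ngp, Camp or Ltf was found in 5 of 47 cells (10.6%, exact interval 3.55 to 23.1) in brain 24 h replicate 1, 48.5% (41.4 to 55.6) in replicate 2, 30.1% (25.5 to 35.0) in brain 72 h and 24.8% (17.6 to 33.2) in pia 24 h. In control dura the share was 86.3% (79.6 to 91.4) and in dura 24 h 86.6% (82.6 to 89.9). Lcn2, also of secondary granules, did not divide the libraries in this way, with 38.3%, 74.8%, 35.2%, 51.9%, 76.0% and 76.8% of cells in the same order. The 2 dura libraries lay within each other's intervals for the first 3 genes and above all 4 brain and pia libraries, of which 2 are in the longer-list set and 2 in the shorter. Dura was also the tissue where lymphoid cells most often carried Ngp (9.46% and 16.8%, against 0.229 to 2.78% in the other 4 libraries). This division of the cells was set after their values had been seen, and with 1 library in most groups the difference has no test.

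Cells with these transcripts held more RNA. Their median was 4297 UMIs in brain 24 h replicate 1, 4662 in replicate 2, 2217 in brain 72 h, 1591 in pia 24 h, 1774 in control dura and 1760.5 in dura 24 h. Cells without them had 742.5, 1350, 744, 656, 675 and 743 UMIs. The former therefore gave 30.4%, 76.1%, 57.4%, 47.5%, 96.0% and 95.2% of all Granulo_2 UMIs. In brain 24 h replicate 1, 97.9% of the 2384 Ngp UMIs came from 3 cells, so a sum over the cluster there describes these cells, and means of the CPM of single cells are given as well.

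The cells in which none of the 3 transcripts was found carried the chemokine, cytokine and receptor genes Cxcl2, Il1b, Csf3r and Cxcr2 more often at the same depth. Cxcl2, a chemokine that attracts neutrophils, was found in 90.5% of the cells without and 40% of the cells with the 3 transcripts in brain 24 h replicate 1, 89.4% and 28.6% in replicate 2, 71.9% and 19.6% in brain 72 h and 72.2% and 15.6% in pia 24 h. In the dura these shares were 35% and 3.97% in the control and 31.2% and 8.06% at 24 h, where 7.83% and 11.3% of lymphoid cells had a Cxcl2 UMI, so the lower value of each pair is at background. In pia 24 h 12.7% of lymphoid cells had one, close to the 15.6% of the cells with the 3 transcripts. Il1b (interleukin-1 beta) showed the same order in all 6 libraries, from 81.7% without and 5.10% with in brain 24 h replicate 2 to 35.4% and 8.71% in dura 24 h. At this depth 0 of 72 lymphoid cells of brain 24 h replicate 1 had a UMI of Il1b, Csf3r or Cxcr2. For the other libraries the background of these genes is not given here, so their low shares may be at background. Csf3r and Cxcr2, the receptor for Cxcl2, were also more frequent in the cells without in each library, for instance 52.7% against 9.82% (Csf3r) and 21.9% against 11.6% (Cxcr2) in brain 72 h. In brain 24 h replicate 1 the cells with the 3 transcripts number only 5, and Cxcr2 was at 28.6% without and 20% with. The cells with the 3 transcripts more often carried Lcn2, in 81.9 to 100% of cells over the 6 libraries, against 10 to 57.7% of the others, so the cells without the 3 transcripts were not free of granule genes. Mmp8 (collagenase of neutrophil granules) was found in 75% of them in control dura and in 2.31% in brain 72 h.

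**Figure D3:**
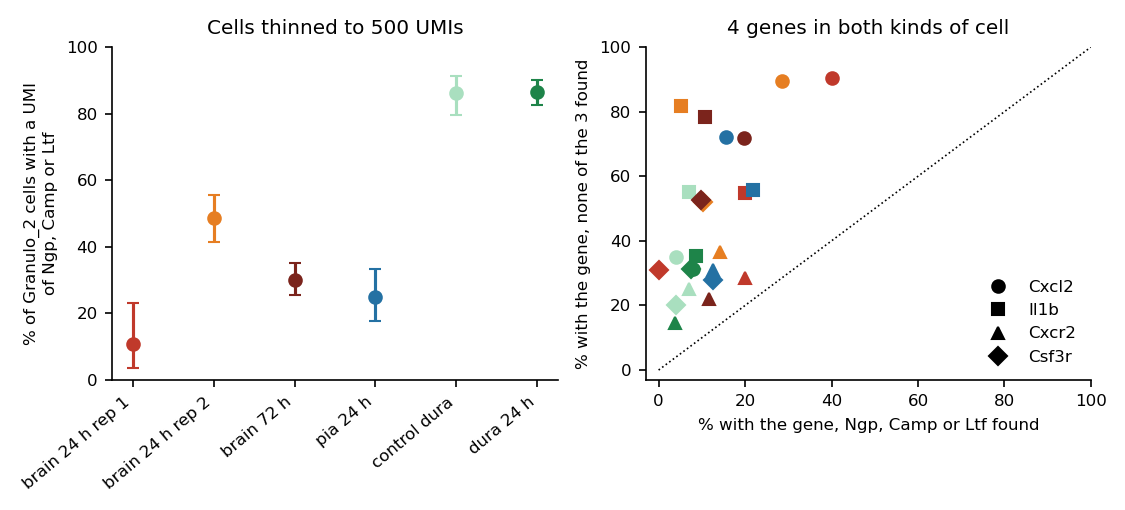
Left, percentage of Granulo_2 cells with at least 1 UMI of Ngp, Camp or Ltf after thinning to 500 UMIs, with exact 95% intervals, in 6 libraries: 10.6 to 48.5% in brain and pia after MCAO, 86.3% and 86.6% in the dura. Right, percentage of cells with Cxcl2, Il1b, Cxcr2 or Csf3r among cells with (x axis) and without (y axis) these transcripts, where all points lie above the dotted line of equal shares.

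The mean CPM over single cells showed the levels that go with this division. Ngp averaged 11144, 14292 and 8880 CPM in brain (24 h replicates 1 and 2, 72 h) and 20142 CPM in pia 24 h, against 81069 in control dura and 84663 in dura 24 h. Camp averaged 3371, 11022 and 7612 CPM in brain and 6624 in pia, against 30636 and 23406 in the dura. For both genes the 2 dura libraries were above all 4 others.

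Cxcl2 averaged 11994, 9141 and 6865 CPM in brain and 3457 in pia, against 549 in control dura and 403 in dura 24 h. Il1b averaged 1774, 2968 and 3888 CPM in brain and 1965 in pia, against 404 and 417 in the dura. Ccl4, an inflammatory chemokine, averaged 5305, 1478 and 1338 CPM in brain and 1999 in pia, against 61.6 and 139. Here the order was reversed, with no overlap between the dura libraries and the others. Il1b in the 3 brain libraries and pia did not separate brain from pia.

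Other genes set brain 24 h replicate 1 and pia 24 h apart from the other 4 libraries. Wfdc17, a secreted protease inhibitor of activated myeloid cells, averaged 49021 CPM in brain 24 h replicate 1 and 40501 in pia 24 h, but 4336 in brain 24 h replicate 2 and 469 in brain 72 h, with 289 in control dura and 3169 in dura 24 h. Cd14, the co-receptor for endotoxin, averaged 17572 and 8791 CPM in brain 24 h replicate 1 and pia 24 h, 1421 and 547 CPM in brain 24 h replicate 2 and brain 72 h, and 1481 and 3873 CPM in control dura and dura 24 h. The 2 brain replicates at 24 h thus differed more from each other in these genes than brain 24 h replicate 1 did from pia.

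**Figure D4:**
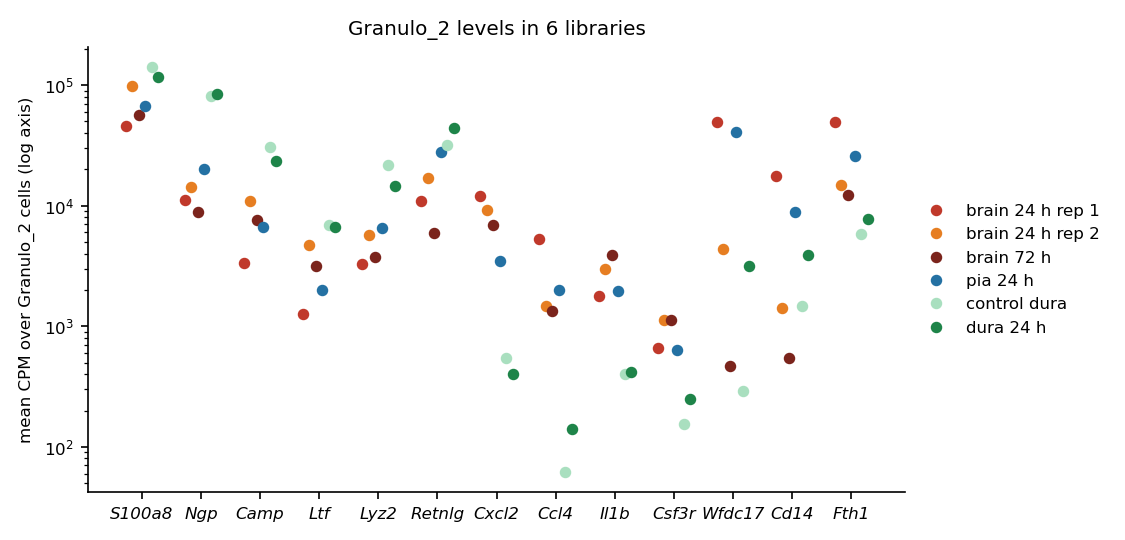
Mean CPM over single Granulo_2 cells (log axis) of 13 genes in 6 libraries, shown as coloured points without error bars since each point is 1 library. Ngp, Camp and Ltf are highest in the 2 dura libraries and Cxcl2, Ccl4, Il1b and Csf3r lowest there, while Wfdc17 is highest in brain 24 h replicate 1 and pia 24 h.

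The compartment comparison asked which genes differed between Granulo_2 of the brain after MCAO (3 libraries) and of the meninges (pia 24 h and dura 24 h). The study digested brain for a shorter time than pia and dura, with more concentrated collagenase and with DNase. It describes a density gradient for brain alone. Compartment and tissue preparation therefore cannot be told apart. UMIs were summed per library and tested in edgeR's quasi-likelihood model, with the listed kit version as covariate. Of 4513 genes tested, 79 (1.75%) were called higher in brain and 33 (0.731%) lower, where a call needed a 2-fold difference and an adjusted p (Benjamini-Hochberg) under 0.05. The brain group includes the 72 h library while both meningeal libraries are from 24 h, and with the 24 h libraries only, without the kit as covariate, 0 of 3223 genes were called in edgeR, with 185 at an unadjusted p under 0.05. Of the 79, only 35 had all 3 brain libraries above both meningeal ones, beside 657 of all 4513 genes (14.6%), and 37 had 0 UMIs in brain 24 h replicate 1. Of the 33 lower genes 30 had all 3 below both, beside 443 of all genes (9.82%). With the gene list in place of the kit as covariate, 1 gene of 5564 was called higher (0.018%) and 0 lower (0%), with 335 genes at an unadjusted p under 0.05. Both shorter-list libraries are from brain, so in that fit the difference comes from brain 24 h replicate 1 (47 cells) against pia and dura, and that library is assumed to vary like the others. Leaving out 1 library gave 717 calls without brain 24 h replicate 1 and 28 without replicate 2. Only brain 72 h and dura 24 h are listed with kit version 3, so without 1 of them the kit term takes up the other. Both of these fits then compare the brain 24 h replicates with pia 24 h alone. Without pia 24 h, dura 24 h is the only meningeal library. Most calls were lost in these fits, which leave 1 meningeal library.

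Ccrl2, a receptor that binds the chemoattractant chemerin without signalling, was that gene. Its sums were 1544, 353 and 628 CPM in the 3 brain libraries (24 h replicates 1 and 2, 72 h), against 115 CPM in pia 24 h and 30.4 in dura 24 h, with 55.1 in control dura. No meningeal library reached a brain library, as for 14.6% of all genes tested. The log2 fold change was 3.37 (SE 0.74, edgeR adjusted p = 0.00124) with the kit as covariate and 4.25 with the gene list. Over the longer-list libraries alone it was 4.55, and both of these values rest on brain 24 h replicate 1 as the only brain library. The call was lost without brain 72 h, without pia 24 h or without dura 24 h. Each of these fits leaves 1 meningeal library, since without brain 72 h the kit term takes up dura 24 h. The fits without brain 72 h and without dura 24 h are therefore not separate checks.

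Egr1, an immediate early transcription factor, was at 428, 588 and 704 CPM in brain, against 68.8 in pia 24 h and 6.34 in dura 24 h, again without overlap between the groups (14.6% of all genes). It rose in brain by a log2 fold change of 4.26 (SE 0.80, edgeR adjusted p = 5.47e-05), and with the gene list as covariate it had 3.69 (edgeR adjusted p = 0.0815). Over the longer-list libraries alone, with replicate 1 as the only brain library, it was 3.92. The call was lost without brain 72 h, pia 24 h or dura 24 h, in fits that again leave 1 meningeal library beside the kit term. In all, 5 of the 14 transcription factors tested were called higher (Egr1, Fosb, Nfkbiz, Jun and Atf3), with a list median of 0.67 beside 0.10 over all genes, and none of the 5 passed with the gene list as covariate. Fosb, Jun and Atf3 belong to the AP-1 family, and Nfkbiz encodes an inducible regulator of NF-kappaB targets. Lymphoid cells of the same libraries had 172, 501 and 629 CPM of Egr1 in brain and 52.2 and 44.0 CPM in pia and dura 24 h. Its level was thus higher in the brain libraries in cells of another kind too. Whether the tissue or its preparation goes with these levels cannot be told apart.

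Some other genes called higher came from the shorter-list libraries alone. Ptp4a1, a phosphatase with the lowest adjusted p (log2 fold change 9.13, SE 1.32, edgeR adjusted p = 3.73e-08), was at 308 and 200 CPM in the 2 shorter-list libraries and listed with 0 UMIs in every longer-list library, brain 24 h replicate 1 included. The 4 erythrocyte genes tested were called higher too. Hbb-bs, for instance, was at 0, 219 and 1193 CPM in brain, against 38.2 and 17.7 CPM in the meninges, and lymphoid cells had 0, 280, 430, 2.90 and 9.43 CPM in the same order. Of the 7 microglia markers tested 4 were called higher. Sparc had 0 UMIs in brain 24 h replicate 1, but P2ry12, Tmem119 and Cx3cr1 were found there with 3, 4 and 4 UMIs (55.8, 74.4 and 74.4 CPM, against 0 to 7.65 CPM in the meninges) and had log2 fold changes of 4.84, 4.41 and 3.23 with the gene list as covariate, without a call. Lymphoid cells of the same library had more of the 8 microglia markers than Granulo_2, at 830 against 521 CPM, as in brain 24 h replicate 2 (663 against 386 CPM), while brain 72 h had 747 and 934 CPM. The part of RNA from other cells was not tested.

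Among the genes called lower in brain were those of MHC class II. All 4 dendritic cell markers tested passed, among them H2-Ab1 at -4.27 (SE 0.69, edgeR adjusted p = 7.92e-07), H2-Aa at -4.18 (edgeR adjusted p = 1.02e-06) and Cd74, the invariant chain, at -3.44 (edgeR adjusted p = 0.00031). Cd74 was at 409, 35.1 and 89.8 CPM in brain and 1675 and 868 CPM in pia and dura 24 h. Ccl7, a monocyte chemokine, was lower by a log2 fold change of -5.71 (edgeR adjusted p = 7.92e-07) and Igkc, an antibody light chain, by -4.00 (edgeR adjusted p = 0.000745). None of these genes was called with the gene list as covariate or with the 24 h libraries only, where the edgeR adjusted p of H2-Ab1 was 0.22 and 0.191 and that of Cd74 0.731 and 0.769, with values below 0 in both fits. Lymphoid cells had 5293, 2417 and 1964 CPM of Cd74 in brain and 4739 and 8989 CPM in pia and dura 24 h, so the order there was not that of Granulo_2 throughout. Whether RNA from other cells of the same suspension gave the class II and Igkc transcripts was not tested.

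Genes that differed between cells with and without the 3 transcripts did not pass this test. Cxcl2 had a log2 fold change of 2.24 (edgeR adjusted p = 0.164), Il1b 1.20 (edgeR adjusted p = 0.415) and Ngp -1.75 (edgeR adjusted p = 0.446). None of the neutrophil identity, granule, NADPH oxidase, interferon or cytokine lists had a called gene. Pia 24 h lay on the side of brain for these genes, as the levels above show, so that the meningeal group was not uniform.

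**Figure D5:**
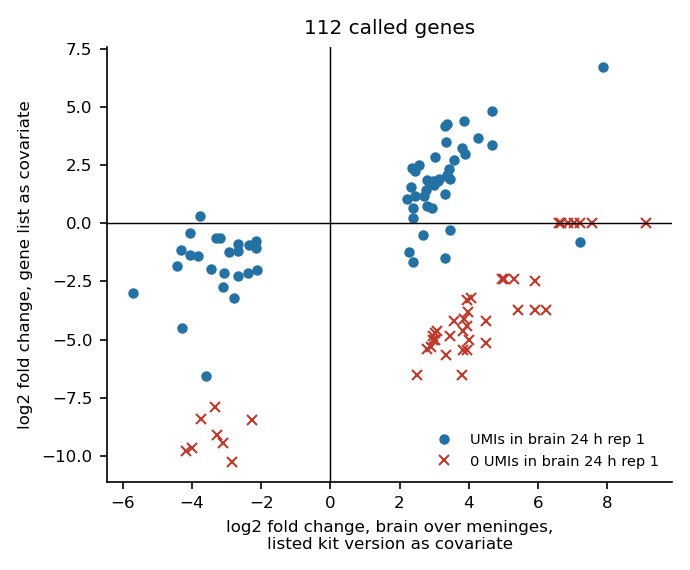
Log2 fold change of brain over meninges in Granulo_2 for the 112 called genes, with the listed kit version (x axis) and with the gene list (y axis) as covariate. Crosses mark genes with 0 UMIs in brain 24 h replicate 1, and the 37 of them among the genes called higher all lie at or below 0 on the y axis.

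Single pairs of longer-list libraries were therefore set side by side, with 1 library each and so without a test. A gene counted as different when its 95% Poisson intervals did not overlap and the fold was at least 2, with sums under 3 UMIs raised to 3 for the fold. These intervals cover counting error only, and the 3 pairs share libraries. Dura 24 h is listed with kit version 3, and brain 24 h replicate 1 and pia 24 h with version 2. Tissue and listed kit therefore cannot be told apart in the pairs with dura 24 h. In the pairs with brain, tissue and its preparation cannot be told apart either. Between brain 24 h replicate 1 and pia 24 h, 43 of 1846 genes (2.33%) were higher in brain and 27 (1.46%) lower. Ccrl2 was 13.5-fold higher (1544 against 115 CPM), Hilpda (a lipid droplet protein) 6.57-fold, Egr1 6.22-fold and Nfkbia (the inhibitor of NF-kappaB) 4.39-fold higher, and 6 of 14 transcription factors were higher and none lower. Apoe (1 against 232 UMIs), H2-Ab1 (1 against 54 UMIs) and Cd74 (409 against 1675 CPM) were lower in brain.

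Between brain 24 h replicate 1 and dura 24 h, 293 of 4669 genes (6.28%) were higher in brain and 108 (2.31%) lower, with a median log2 ratio of 0.94 over all of them. Cxcl2 was at 9136 CPM in brain and 190 CPM in dura. Between pia 24 h and dura 24 h, 352 of 4881 genes (7.21%) were higher in pia and 143 (2.93%) lower. In the latter pair 9 of 13 cytokine and chemokine genes were higher in pia and none lower, with a list median of 3.09 beside 0.27 over all genes. Ccl4 was at 1400 against 49.4 CPM (28.3-fold), Il1b at 1362 against 160 CPM (8.52-fold) and Cxcl3 at 337 CPM against 0 UMIs (88.5-fold with 3 UMIs in place of 0). Wfdc17 was at 28309 against 1014 CPM (27.9-fold).

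On the other side, 4 of 5 primary granule genes and 5 of 7 proliferation markers were lower in pia than in dura, with list medians of -2.86 and -1.87. Elane (neutrophil elastase) had 2 UMIs in pia 24 h and 416 in dura 24 h, Mpo (myeloperoxidase) 1 and 157, and Pclaf (a factor of DNA replication) 6 and 296. In dura 24 h 3 of the 359 cells gave 76.7% of the Elane and 88.5% of the Mpo UMIs. In dura 24 h, 2.39% of thinned lymphoid cells carried Elane against 3.35% of Granulo_2 cells, so that its presence in single cells there is close to background, while its sum was 527 CPM in Granulo_2 and 45.6 in lymphoid cells.

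The time comparison asked what differed between Granulo_2 of brain at 72 h (1 library) and at 24 h (2 libraries). Only 1 of 5063 genes (0.0198%) was called higher and 0 (0%) lower by the test in edgeR, where 55 genes had an unadjusted p under 0.05, and DESeq2 called 0, where 21 did. The gene was Elane, with 0 and 1 UMIs at 24 h and 263 UMIs (536 CPM) at 72 h, with a log2 fold change of 7.91 (SE 1.45, edgeR adjusted p = 0.000267). This call compares 1 library with 2 that are in different sets, so the spread comes from the 24 h libraries alone and the 72 h library is assumed to vary like them. The UMIs at 72 h came from 6 of 373 cells, and 3 cells gave 88.2% of them. After thinning to 500 UMIs it was no longer called.

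Mpo (log2 fold change 8.72, edgeR adjusted p = 0.08) and Prtn3 (proteinase 3; 4.63, edgeR adjusted p = 0.266), the neighbours of Elane in the primary granule, pointed the same way without passing. All 76 Mpo UMIs at 72 h came from 4 cells. Elane was not particular to the later time, since control dura held 907 CPM and dura 24 h 527 CPM of it, where 3 cells gave 85.0% and 76.7% of the UMIs.

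Brain 72 h and brain 24 h replicate 2 are in the same set, but the study lists different kit versions for them, so time and listed kit cannot be told apart. Between these 2 libraries 599 of 6515 genes (9.19%) were higher at 72 h and 60 (0.921%) lower, without a test and with a median log2 ratio of 0.38 over all of them. All 5 primary granule genes were higher, and Prtn3 was at 318 against 7.98 CPM. Havcr2, which encodes the checkpoint receptor Tim-3, was at 53.0 against 4.79 CPM. Wfdc17 was lower, at 255 against 2037 CPM, and Cxcl3 at 40.8 against 224 CPM. All 4 erythrocyte genes, 4 of 8 microglia markers and all 4 dendritic cell markers measured were also higher at 72 h, and their part in the other differences was not tested.

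To ask whether the compartment difference was that of Granulo_1 as well, both clusters of each library were put in 1 edgeR model. Of 6877 genes, 0 (0%) had a called higher and 1 (0.0145%) a called lower difference in Granulo_2 than in Granulo_1, with 255 at an unadjusted p under 0.05, while DESeq2 called 0. The gene was Apoe, the apolipoprotein of macrophages and glia, with a difference of -3.24 on the log2 scale (SE 0.61, edgeR adjusted p = 0.000829). Its adjusted p was 0.256 without brain 24 h replicate 1 and 0.37 without pia 24 h, and the number of genes called was 0 to 7 when 1 library was left out, with 7 without brain 72 h. In Granulo_2 Apoe was at 18.6, 59.1 and 649 CPM in brain and 1775 and 1012 CPM in pia and dura 24 h. In Granulo_1 it was at 4513, 4455 and 12947 CPM in brain and 6572 and 9829 CPM in the meninges. Lymphoid cells had 121, 234, 1029, 1555 and 1447 CPM in the same order, above the Granulo_2 level in 4 of the 5 libraries.

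The last comparison was between dura 24 h after MCAO and control dura, which are in the same set and hold 359 and 146 Granulo_2 cells. The listed kit is version 3 for the former and 2 for the latter, so stroke and listed kit cannot be told apart in this pair. Control brain and control pia, with 4 and 10 Granulo_2 cells, were not compared gene by gene with their tissue after MCAO. There was 1 library a group and so no test. Of 5456 genes measured, 49 (0.898%) were at least 2-fold higher at 24 h with intervals apart and 76 (1.39%) lower (median log2 ratio over all of them -0.04), while the Granulo_1 sums of the same libraries gave 107 and 96 of 4425 genes.

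Ifitm1, an interferon-induced membrane protein, was at 267 CPM at 24 h and 17.4 CPM in the control (15.4-fold, 211 and 6 UMIs). Wfdc17 was at 1014 against 107 CPM (9.45-fold), Hilpda at 226 against 37.7 CPM (5.99-fold) and G0s2, which inhibits fat breakdown, at 1051 against 499 CPM (2.11-fold). Nfkbiz was lower, at 45.6 against 133 CPM. Mgp and Mfap4, matrix proteins made by fibroblasts and vessel walls, were also lower (4 against 22 UMIs and 0 against 12 UMIs). Of the 12 interferon genes measured 1 was higher and 1 lower, and no gene of the secondary granule, tertiary granule, NADPH oxidase or cytokine lists differed. The share of cells with Ngp, Camp or Ltf (86.3% and 86.6%) and the mean Ngp level (81069 and 84663 CPM) were close in the 2 libraries.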

How the data were processed

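Single-cell RNA-seq of CD45iv-CD45+ leukocytes was used from 8 libraries. The authors deposited UMI counts per gene and barcode, made with Cell Ranger 6.0 on build mm10 per the submitters' processing notes and left without normalization, and a table that names the cluster of the cells kept after filters on genes, mitochondrial share and doublets. Their UMAP coordinates, deposited as scores, were not used. These clusters grouped the cells, and the T, B, NK, gdTc and ILC2 clusters served as lymphoid cells. Of 36854 barcodes, 32457 were annotated. Genes were matched by Ensembl identifier, since 597 carry another symbol in the other gene list.

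The cluster and the gene lists were chosen with earlier results of these data known. Genes to name were those of the 22 lists, the 10 with the highest and lowest ratio or fold change among those called (where fewer than 5 passed, also the 5 of lowest p), the 5 with the largest ratio in each pair of libraries and the 15 most abundant, leaving out mitochondrial, ribosomal and predicted genes. The text takes its examples from these after their values were seen, and adds Cd14. Single values of some genes are not reported here.

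UMIs were summed per library and cluster where at least 30 cells were present, and tested with edgeR 4.0.16 (filterByExpr, TMM, robust glmQLFit and glmQLFTest, two-sided) in R 4.3.3. The model with both clusters had the library as a block. Calls required a 2-fold difference and an adjusted p (Benjamini-Hochberg) under 0.05. DESeq2 1.42.0 was an alternative. For ratios within a library 0.5 counts were added, and 3 UMIs in place of 0 were tried after seeing the data. Shares have exact (Clopper-Pearson) and CPM exact Poisson 95% intervals. Depth was 6591898 to 20754181 UMIs per library. Statistics were checked on simulated data. Sums and intervals were made in Python 3.11.15 (scipy 1.17.1, numpy 2.4.6, with pandas 2.3.3), figures with matplotlib 3.10.9.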

Additional observations from a re-analysis of the deposited data

Results flagged for a closer look

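In some barcodes that the authors' filters left out, the share of UMIs from S100a8 and S100a9 reached a level set by Granulo_2 cells. Only the lowest 10 percent of Granulo_2 cells of the same library lay below this level. It was 1.12% and 4.18% in the brain 24 h replicates, 0.387% in brain 72 h, 2.24% in pia 24 h, 11.4% in control dura and 7.82% in dura 24 h. The numbers that reached it are therefore not comparable between libraries. Left-out barcodes at or above it were 17 of 880 (1.93%) in brain 24 h replicate 2, 56 of 1347 (4.16%) in brain 72 h, 10 of 400 (2.5%) in pia 24 h, 5 of 293 (1.71%) in control dura and 23 of 538 (4.28%) in dura 24 h. Of Granulo_1 cells, 5 of 188 reached the level in brain 24 h replicate 2, a larger share than that of the left-out barcodes there, 7 of 1315 in brain 72 h, 2 of 303 in pia 24 h and none in the dura. No lymphoid cell of these libraries did. Each share of left-out barcodes lies above an approximate limit for that count of 0, made with 3 lymphoid cells in its place (0.128 to 0.686%). In brain 24 h replicate 1 they were 5 of 378 (1.32%), below that limit of 4.17%. The median of these barcodes was 1524.5 UMIs in pia 24 h and between 3543 and 5769 in the other 5 libraries, above the Granulo_2 median of each library. The left-out barcodes entered no comparison.

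The compartment difference of Apoe was lower in Granulo_2 than in Granulo_1 by a test of the difference itself (-3.24 on the log2 scale, edgeR adjusted p = 0.000829). Over the alternatives its value ranged from -5.61 to -2.79 and its adjusted p from 6.39e-07 to 0.486. Lymphoid cells had more Apoe than Granulo_2 in the 3 brain libraries and dura 24 h, and the part of RNA from other cells was not tested.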

How the results depend on the processing

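Depth per cell, 1 library in most groups and the 2 sets of libraries limit these results. The genes higher and lower than in Granulo_1 numbered 32 and 220 with libraries of at least 10 cells, 37 and 130 after thinning to 500 UMIs and 37 and 92 at 4-fold, and leaving out 1 library gave 87 to 148 and 368 to 523. The 112 compartment calls became 18 with DESeq2 (1575 adjusted p not given), 25 without the filter on low counts, 27 after thinning, 40 without the kit version and 0 with the 24 h libraries only (185 at an unadjusted p under 0.05). They were 717 without brain 24 h replicate 1, 28 without replicate 2, 117 with library size alone and 84 with control dura added. Most were lost without pia 24 h, brain 72 h or dura 24 h. Each of these fits leaves 1 meningeal library, since without brain 72 h or dura 24 h the kit term takes up the other. Alternatives chosen after seeing the data gave 1 call with the gene list as covariate, 1 with control dura added to it and 4 with the longer list only. The cause was not tested.

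For 72 h against 24 h the 1 call became 0 with DESeq2, 0 without the filter, 0 after thinning and 2 with library size alone. Leaving out a library there left no residual degree of freedom. The 1 call against Granulo_1 became 0 with DESeq2 and 0 to 7 with 1 brain library left out. The 7 came without brain 72 h, which is the same fit as that with the 24 h libraries only. The longer list only, and leaving out pia 24 h or dura 24 h, leave an arm with 1 library. That library is then assumed to vary like the others.

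With all barcodes as denominator the Granulo_2 share was 4.65% in brain 24 h replicate 2, 5.04% in brain 72 h and 7.10% in dura 24 h. Outside the microglia clusters it was 0.709% in control brain, 2.97% and 13.7% in the brain 24 h replicates and 7.43% in brain 72 h.

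With the gene list as covariate, 68 of the 112 called genes kept the sign of their compartment log2 fold change. Among those that reversed were Schip1 0.32, Hbb-bt -4.20, Hbb-bs -6.51, Hba-a1 -5.16, Hba-a2 -5.43, Lars2 -3.73, AY036118 -3.72 and Ttr -3.72. With control dura added to that fit they were Schip1 0.95, Hbb-bt -3.95, Hbb-bs -6.06, Hba-a1 -4.78, Hba-a2 -5.02, Lars2 -3.21, AY036118 -3.21, Ttr -3.21 and Sparc -2.79, and over the longer list only Schip1 had 0.58. Libraries of different groups were not paired with each other, and only the model with both clusters had the library as a block.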

Other observations

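The 7 proliferation markers summed to 447, 2090, 3396, 1270, 4235 and 3039 CPM in Granulo_2 of brain 24 h replicates 1 and 2, brain 72 h, pia 24 h, control dura and dura 24 h, most of it Hmgb2, a chromatin protein. Granulo_1 had 166 to 759 CPM and lymphoid cells 587 to 1326 CPM in these libraries, and Granulo_2 was above both in each library except brain 24 h replicate 1, where lymphoid cells had 587 CPM. Mki67, the marker of cycling cells, was found in 0 of 47 cells in brain 24 h replicate 1 and in at most 2.15% of thinned cells (brain 72 h), and lymphoid cells had it in up to 1.14% in these 6 libraries. Its sums were 0, 52.7, 129, 7.65, 60.9 and 45.6 CPM in the same order. In brain 24 h replicate 2, 8 of 202 cells carried its 33 UMIs, and in brain 72 h 22 of 373 cells carried 63 UMIs.

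In the 10 Granulo_2 cells of control pia, which entered the shares of cells and, of the gene comparisons, only that with Granulo_1 over libraries of at least 10 cells, Ngp was at 107840 CPM (95% Poisson interval 103824 to 111972), S100a8 at 182035 CPM (176805 to 187380) and Cxcl2 at 1666 CPM (1201 to 2252), while the cells of pia 24 h had 52465, 93289 and 2914 CPM. These intervals cover the counting error of 10 cells from 1 library.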
